A study of Homo sapiens with 16 samples.

Results

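The genes described are 10 tubulin isotypes, chosen by symbol from the 58735 genes of the count table: the 7 beta-tubulins TUBB, TUBB4B, TUBB2A, TUBB2B, TUBB6, TUBB3 and TUBB4A, and the 3 alpha-tubulins TUBA1B, TUBA1C and TUBA1A. Their transcripts were counted by mRNA-seq in 16 libraries from 4 human breast cancer cell lines, in 8 groups of 2. HCC1806 (a basal, triple-negative line) and BT474 (a luminal line with ERBB2 amplification) were each grown as 2D monolayers and as 3D spheroids harvested at day 10 and day 20 after seeding. CAL148 (a triple-negative line with androgen receptor) and ZR-75-30 (a luminal, ERBB2-amplified line) were grown as monolayers. HCC1806 and ZR-75-30 were kept in RPMI 1640, and BT474 and CAL148 in DMEM, all with 10% fetal bovine serum, so medium cannot be told apart from line in any comparison of an RPMI line with a DMEM line. The labels of these libraries name no drug. Each line is a single established line, and the labels do not say that the 2 replicates of a group came from separate cultures, so p-values measure the spread between these libraries.

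Alpha- and beta-tubulin form the heterodimer from which microtubules grow. Beta-tubulin carries the binding site of taxanes, which stabilize microtubules, and the vinca alkaloids bind at the interface between dimers. Humans have several genes for each subunit: TUBB and TUBB4B are broadly expressed beta isotypes, TUBB2A, TUBB2B, TUBB3 and TUBB4A are best known from neurons, and TUBB6 is a divergent isotype found in many non-neuronal tissues. TUBA1B and TUBA1C are the common alpha isotypes of dividing cells, and TUBA1A is the main alpha isotype of developing neurons. Tubulin messages are also destabilized when free tubulin is abundant: TTC5 recognizes the first residues of the nascent protein and, through SCAPER, brings the CCR4-NOT deadenylase to the message.

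The start of the coding sequence is what the autoregulation pathway reads, and the end carries isotype signatures, so stretches of both are shown (GENCODE 29 model transcripts, GRCh38; each member's gene model was matched by symbol). The first 30 coding bases are given for 5 members, 5′ to 3′, with the 12 bases that encode the first 4 residues, the part read by the autoregulation pathway, in capitals.
TUBB: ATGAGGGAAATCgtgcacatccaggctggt
TUBB2A: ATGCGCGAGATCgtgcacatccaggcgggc
TUBB2B: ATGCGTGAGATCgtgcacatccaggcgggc
TUBB6: ATGAGGGAGATCgtgcacatccaggcgggc
TUBA1B: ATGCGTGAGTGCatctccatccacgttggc
The other beta members have the same or synonymous codons there, and TUBA1C and TUBA1A have the same 30 bases as TUBA1B. The last 60 coding bases encode the C-terminal tail, where isotypes carry their signature and where tubulin-modifying enzymes act. They are shown for the 7 beta members with the stop codon in capitals.
TUBB: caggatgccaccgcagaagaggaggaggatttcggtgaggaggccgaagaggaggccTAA
TUBB4B: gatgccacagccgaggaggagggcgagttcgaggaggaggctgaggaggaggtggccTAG
TUBB2A: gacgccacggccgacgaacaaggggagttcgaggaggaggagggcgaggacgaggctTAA
TUBB2B: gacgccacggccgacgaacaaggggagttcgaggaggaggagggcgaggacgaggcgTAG
TUBB6: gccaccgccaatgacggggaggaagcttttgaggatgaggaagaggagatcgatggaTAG
TUBB3: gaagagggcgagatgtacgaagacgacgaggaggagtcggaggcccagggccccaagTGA
TUBB4A: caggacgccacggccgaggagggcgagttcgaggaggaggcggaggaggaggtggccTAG
Of the 19 codons before the stop, 10 were glutamate codons in TUBB4B and 9 in TUBB, against 7 in TUBB6. TUBB2A and TUBB2B differed at 2 of these 60 bases.

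Over the whole coding sequence, identity between beta members ran from 80.9% (TUBB and TUBB6) to 98.1% (TUBB2A and TUBB2B, with 25 mismatches in 1338 bases) over 21 pairs. The 3 alpha pairs lay between 95.9% and 97.2%. Such likeness bears on how reads are assigned. Every 150-base stretch (the length of a sequenced read) of each member's model transcript was therefore looked up in the transcripts of all other genes, on either strand. Parts of a gene outside its model transcript were not searched. None of the 1915 stretches of TUBB6 and none of the 1488 of TUBB4B occurred elsewhere. For TUBB2A 49.4% of stretches were shared, mostly with TUBB2B, and for TUBB2B 39.4%, mostly with TUBB2A. The corresponding shares were 64.2% for TUBA1B (mostly with the antisense RNA AC011603.2), 23.9% for TUBA1C, 18.0% for TUBB, 12.6% for TUBA1A and 10.0% for TUBB4A. TUBB3 stood apart, with 88.7% of its stretches also in AC092143.1, a read-through gene that joins MC1R to TUBB3 on the same strand. AC092143.1 held 0 counts in all 16 libraries together, and whether reads that fall in both genes were discarded is not given in the sources used here, so the TUBB3 values may be too low by an unknown amount.

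The members lie on 6 chromosomes of GRCh38. TUBB is at chr6:30720201-30725426 (+), and TUBB2A (chr6:3153669-3157526) and TUBB2B (chr6:3224261-3231730) sit on the minus strand of the same chromosome. TUBB4B is at chr9:137241213-137243707 (+), TUBB6 at chr18:12307669-12344320 (+), TUBB3 at chr16:89921392-89938761 (+) and TUBB4A at chr19:6494319-6502848 (-). The alpha genes are grouped on chromosome 12: TUBA1B at chr12:49127782-49131397 (-), TUBA1A at chr12:49184796-49189324 (-) and TUBA1C at chr12:49188736-49274603 (+). The annotated bodies of TUBA1A and TUBA1C overlap on opposite strands, as do those of TUBB2B and PSMG4, of TUBB6 and AFG3L2, and of TUBB4B and FAM166A. The strand setting of the counting is not given in the sources used here, so reads from the overlapping parts cannot be told apart. Each model has 4 exons. The 37 tubulin pseudogene rows of the table together held between 0.597% and 1.93% as many counts as the members.

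Library depth ran from 29696358 to 72489002 counts. The line markers were where the labels put them: ERBB2 was at 5886 CPM (counts scaled to TMM-adjusted library sizes) or more in the 8 BT474 and ZR-75-30 libraries and at or below 336 CPM in the others, KRT5 was at 1539 CPM or more in HCC1806 and at most 0.190 CPM elsewhere, and the leukocyte markers PTPRC, CD3E and CD68 were near 0 in every group. CDH1 was low in ZR-75-30 (9.05 CPM). One replicate pair stood apart. The 2 HCC1806 monolayer libraries differed from each other by a replicate SD of 1.37 log2 units over all genes, against 0.215 to 0.322 for the spheroid and BT474 pairs, 0.620 for CAL148 and 0.767 for ZR-75-30. In HCC1806 monolayer replicate 1, mitochondrial transcripts took 17.8% of counts, and 15 mitotic genes summed to 923 CPM; in replicate 2 these were 0.768% and 5136 CPM. ZR-75-30 replicate 2 also had a high mitochondrial share (20.5%, against 1.96% in replicate 1), and the mitotic sum of CAL148 was 743 CPM in replicate 1 and 2472 CPM in replicate 2. Several results that rest on these libraries are given with and without them. Others, such as isotype shares and the changes of named list genes, are given only with them. The part of these libraries in a result was otherwise not tested.

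TUBB and TUBB4B made up most of the beta-tubulin message in every library. Shares are on the length-corrected scale (deposited FPKM, fragments scaled to annotated gene length and library depth). The annotated length exceeds the model transcript unevenly, at 4117 against 2064 bases for TUBB6 and 3359 against 2670 for TUBB. TUBB held 59.3% ± 1.19 (SD, n = 2 throughout) of the 7-gene beta sum in CAL148, the highest group, and 44.4% ± 0.757 in ZR-75-30, the lowest. TUBB4B held 38.5% ± 0.502 in HCC1806 day 20 spheroids and 50.9% ± 0.219 in ZR-75-30, where it was the larger of the pair in both libraries. TUBB also came second in BT474 monolayer replicate 1 (46.7% of the beta sum), while replicate 2 gave 54.3%, so the order of the pair was not settled in that group. In the other groups TUBB was first in both libraries. By counts not divided by length, TUBB was first in ZR-75-30 too (55.9% against 40.4% for TUBB4B). The same held in BT474 monolayer replicate 1 (58.0% against 37.7%), so the order there depended on the length used. With 2 libraries a group, the smallest exact two-sided permutation p is 0.33, so shares are given as a description.

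The minor beta isotypes differed more between lines. TUBB6 held between 3.25% ± 0.303 and 4.69% ± 0.133 of the beta sum in the 3 HCC1806 groups, 0.930% ± 0.132 in BT474 monolayers, 0.703% ± 0.230 in ZR-75-30 and 0.0310% ± 0.00774 in CAL148. TUBB2A was the main minor isotype of BT474 and ZR-75-30, at 3.58% ± 0.0969 to 4.47% ± 0.114 and 4.01% ± 0.301, but held only 0.628% ± 0.253 in CAL148. TUBB3 and TUBB4A were each at most 0.159% of the beta sum in every group mean. Among the 3 alpha members TUBA1B led in BT474 (64.98% to 65.49% over its 3 group means). TUBA1A held 2.31% to 12.3% in the group means of HCC1806, BT474 and ZR-75-30, and 36.1% ± 2.96 in CAL148. Its share differed between the 2 libraries of HCC1806 monolayers (11.9% and 0.301%) and of ZR-75-30 (3.92% and 12.4%).

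**Figure D1:**
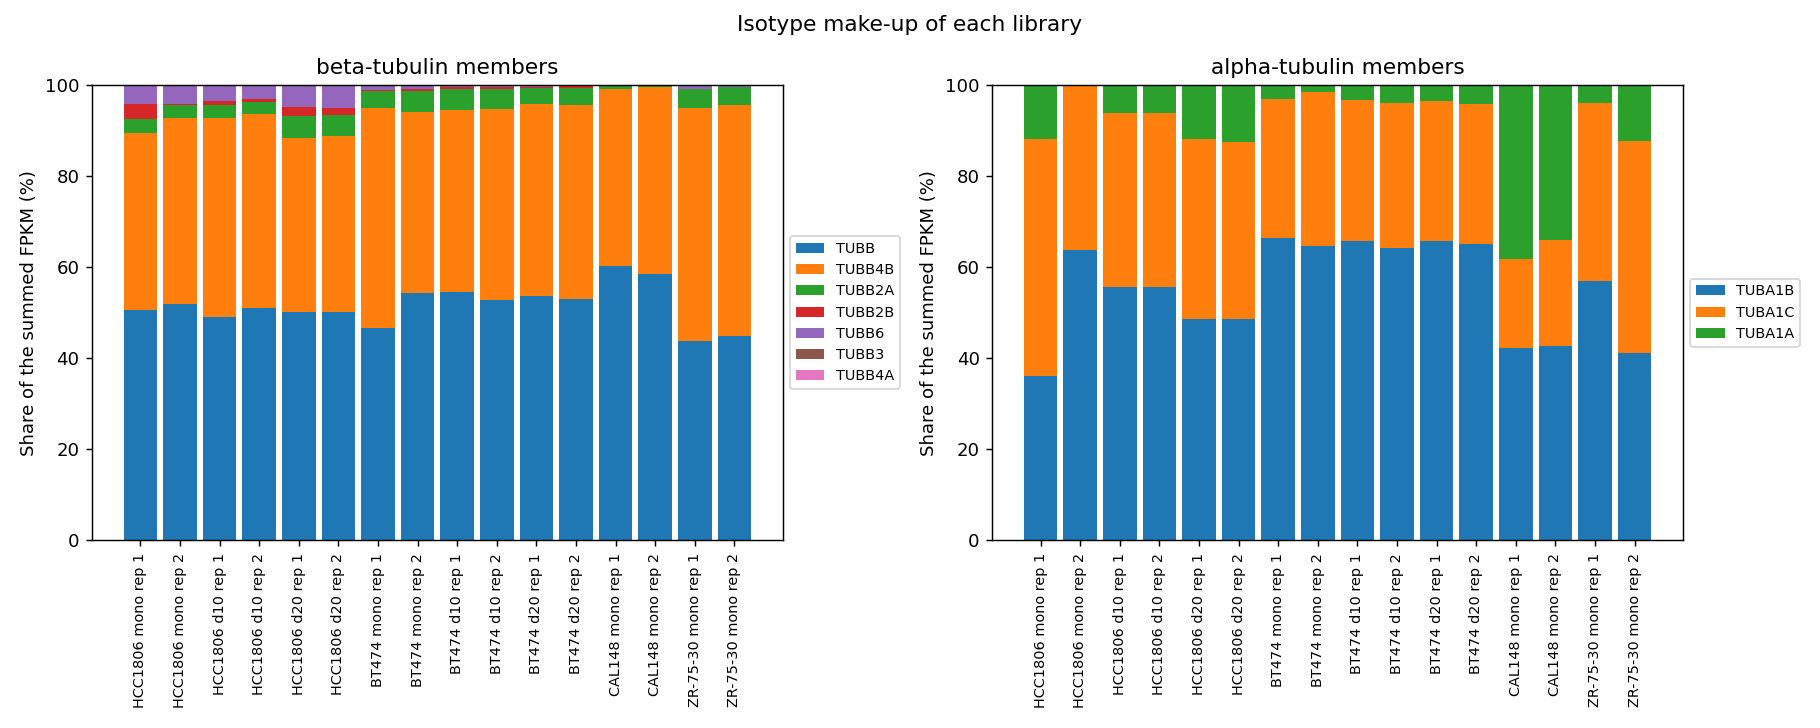
Share of each isotype (y axis, percent) in the summed FPKM of the 7 beta members (left) and the 3 alpha members (right), 1 bar per library. TUBB and TUBB4B fill most of every beta bar, the TUBB6 band is widest in HCC1806, and the TUBA1A band is widest in the CAL148 libraries (38.2% and 34.1%).

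**Figure D2:**
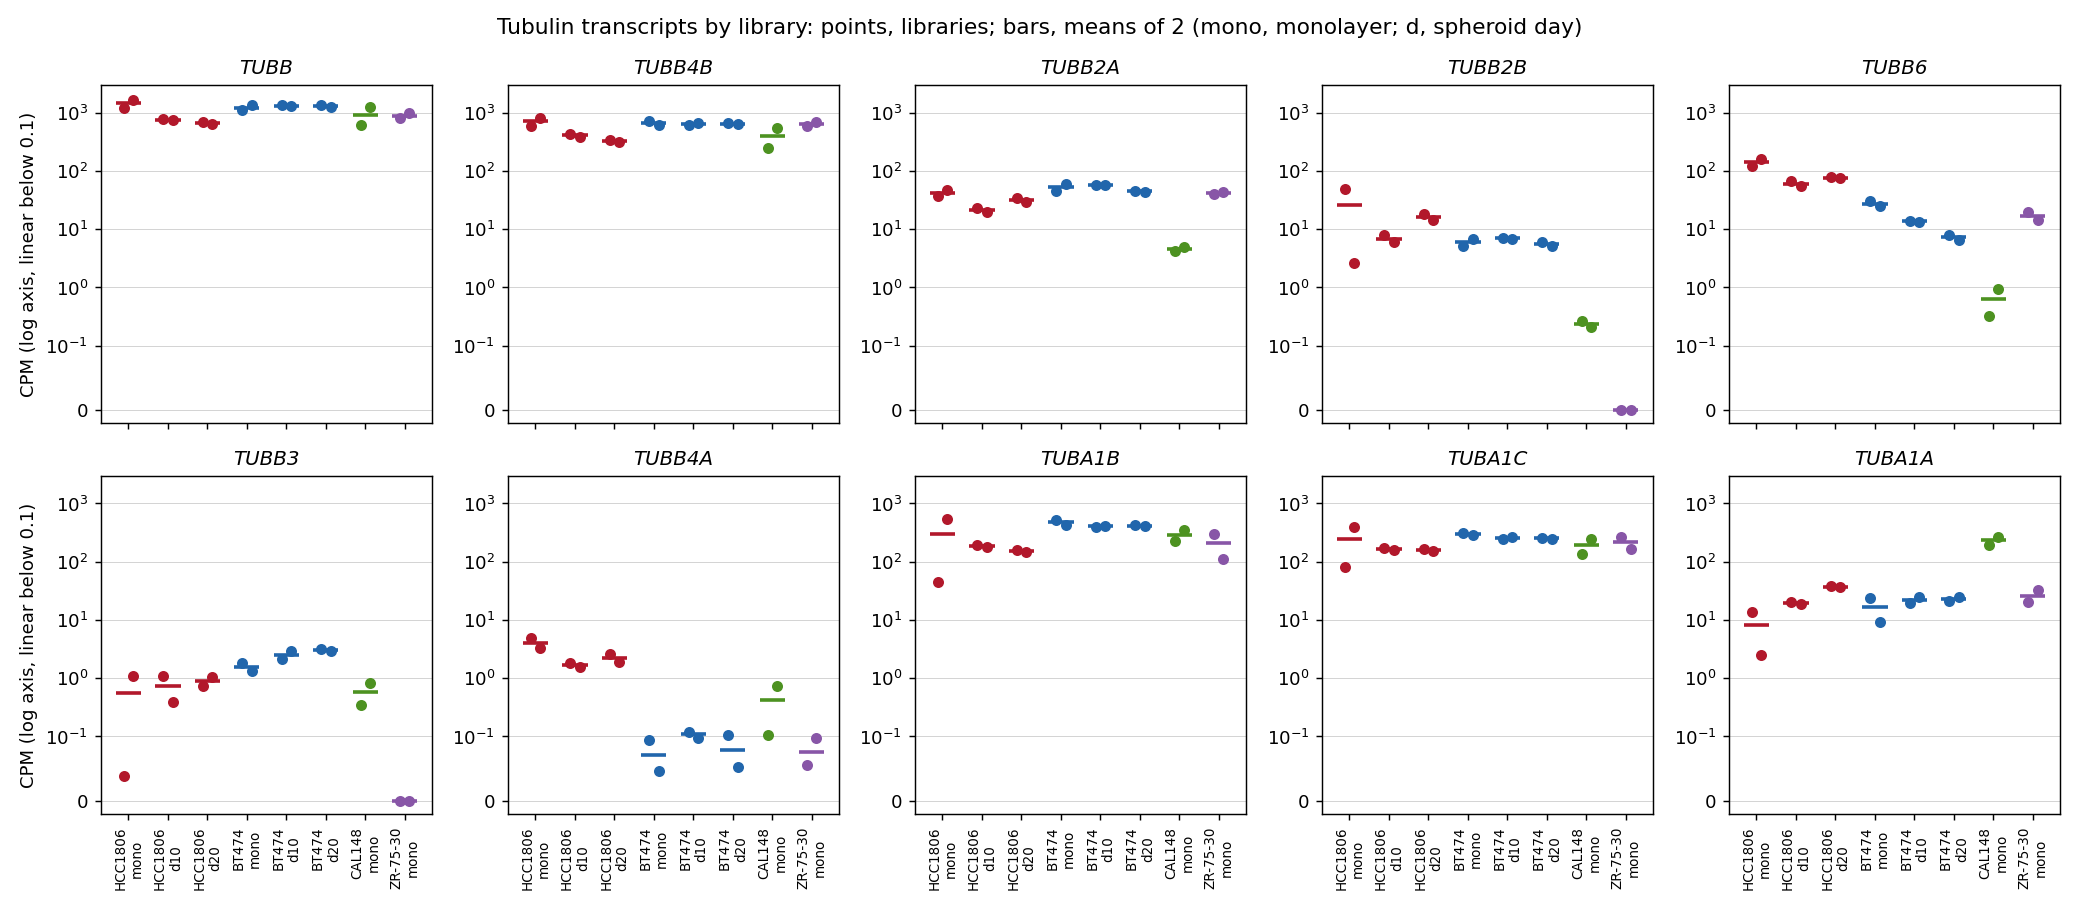
Level of each member in CPM (y axis, log scale, linear below 0.1) in the 16 libraries; points are libraries, bars are means of 2, and colours mark the lines. TUBB lies between 620 and 1671 CPM in all libraries, while TUBB6 runs from 0.323 CPM in CAL148 to 160 CPM in HCC1806.

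HCC1806 spheroids carried less beta-tubulin message than HCC1806 monolayers. At day 10, 4 of the 10 members were lower and none higher, where 3.58% of 20929 genes tested were lower and 5.14% higher; the members' median log2 change was -0.875, against 0 for all genes. At day 20, 3 were lower and none higher, where 4.85% of genes were lower and 6.24% higher, with a members' median of -0.784. Calls here and below are from edgeR's quasi-likelihood test with Benjamini-Hochberg adjustment over all genes tested, at an adjusted p below 0.05, and fold changes are log2. Both contrasts share the monolayer libraries. In bulk RNA, fewer cells of a kind and less RNA per cell cannot be told apart.

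TUBB, the most abundant beta isotype, was at 1226 and 1671 CPM in the monolayer libraries, 765 and 744 CPM at day 10, and 701 and 645 CPM at day 20. Both monolayers were above all 4 spheroid libraries. It fell by 0.95 on the log2 scale (SE 0.21, adjusted p = 0.0275) at day 10 and by 1.11 (SE 0.21, adjusted p = 0.0138) at day 20. TUBB4B, the second main isotype, was at 596 and 826 CPM in monolayers, 428.5 and 389.8 CPM at day 10, and 334 and 315 CPM at day 20. It fell by 0.80 (SE 0.20, adjusted p = 0.0437) and then by 1.14 (SE 0.20, adjusted p = 0.0113), again without overlap. TUBB6, the divergent isotype, was at 122 and 160 CPM in monolayers, 66.25 and 54.26 CPM at day 10, and 78.5 and 75.5 CPM at day 20. It fell by 1.24 (SE 0.20, adjusted p = 0.00919) and by 0.88 (SE 0.20, adjusted p = 0.0257). TUBB2A was at 37.8 and 46.9 CPM in monolayers and 23.0 and 20.0 CPM at day 10, a fall of 0.99 (SE 0.19, adjusted p = 0.0185); at day 20 it was at 34.2 and 29.5 CPM, a difference that did not pass (log2 change -0.42, adjusted p = 0.199).

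These 4 beta genes were lower than in either monolayer library taken alone. Without monolayer replicate 1 the log2 changes at day 10 were -1.23 for TUBB, -1.10 for TUBB4B, -1.50 for TUBB6 and -1.21 for TUBB2A, and without replicate 2 they were -0.69, -0.53, -1.004 and -0.80. Each of these fits kept 1 monolayer library, which was assumed to vary like the other pairs (replicate SD 0.215 to 0.322). The 2 monolayers themselves differed by a replicate SD of 1.37, so only the sizes of the changes are given. At day 20 the values without replicate 1 were -1.40 for TUBB, -1.43 for TUBB4B and -1.14 for TUBB6, and without replicate 2 they were -0.86, -0.87 and -0.65. With both monolayers in the fit, leaving out any 1 of the 10 HCC1806 spheroid and BT474 libraries ended the day 10 calls of TUBB (adjusted p 0.0574 to 0.218) and TUBB4B (0.0847 to 0.297). Without a day 10 spheroid library the TUBB6 call was also lost (0.0693 without replicate 1, 0.119 without replicate 2), and the TUBB2A call was lost without any 1 of the day 10 or BT474 spheroid libraries (0.0536 to 0.187). At day 20, TUBB (0.108 and 0.138) and TUBB4B (0.0989 and 0.118) lost theirs without day 20 replicate 1 or 2, and TUBB6 lost its call without any 1 of 9 libraries (0.0522 to 0.191), namely the HCC1806 and BT474 spheroids and BT474 monolayer replicate 1. With the 6 HCC1806 libraries alone no member was called in either comparison.

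The alpha isotypes could not be compared in the same way, because the 2 HCC1806 monolayers lay on either side of the spheroids. TUBA1B was at 44.0 CPM in monolayer replicate 1 and 547 CPM in replicate 2, against 191 and 177 CPM at day 10 and 160 and 147 CPM at day 20. TUBA1C was at 82.3 and 399 CPM in the monolayers, against 152 to 170 CPM over the 4 spheroid libraries. Against replicate 2 alone (without replicate 1) the day 10 log2 change was -1.65 for TUBA1B and -1.37 for TUBA1C, and against replicate 1 alone it was 2.08 and 1.01, so the direction depended on the library. With both libraries the adjusted p was 0.640 for TUBA1B and 0.558 for TUBA1C. TUBA1A was at 13.9 and 2.47 CPM in monolayers, 20.25 and 18.72 CPM at day 10 and 37.7 and 36.6 CPM at day 20. All spheroid libraries were above both monolayers, yet the change did not pass (log2 change 1.25, adjusted p = 0.292 at day 10; 2.18, adjusted p = 0.0857 at day 20). Without monolayer replicate 1 the TUBA1A log2 change was 2.89 at day 10 and 3.82 at day 20. Without replicate 2 it was 0.50 and 1.43. TUBB4A was at 4.81 and 3.29 CPM in monolayers, 1.82 and 1.57 CPM at day 10 and 2.56 and 1.87 CPM at day 20, without overlap and without a call (log2 change -1.26, adjusted p = 0.110, and -0.88, adjusted p = 0.224). TUBB3 overlapped between the groups (adjusted p = 0.867 and 0.725).

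The replicate 1 monolayer thus held a large beta sum with a small alpha sum: 2037 CPM over the 7 beta members and 140 CPM over the 3 alpha members. Replicate 2 held 2711 and 949 CPM. In the 4 HCC1806 spheroid libraries the beta sum lay between 1082 and 1294 CPM and the alpha sum between 336 and 381 CPM. TUBB2B, nearly identical to TUBB2A, was instead the higher one in replicate 1, with 1266 counts (49.9 CPM) in replicate 1 and 95 counts (2.58 CPM) in replicate 2. Its day 10 log2 change was -2.83 against replicate 1 alone and 1.34 against replicate 2 alone. Without replicate 1, 2 of the 10 members were higher and 6 lower at day 10, where 19.6% of all genes were higher and 19.0% lower, and 2 and 6 at day 20 (20.3% and 20.2%). Without replicate 2, 3 were higher and 6 lower at day 10 (29.5% and 23.2% of all genes), and 3 and 5 at day 20 (29.7% and 23.3%). Leaving out replicate 1, all 15 mitotic genes were lower at day 10, and leaving out replicate 2, 12 were higher and 2 lower. The part that cell cycle state or RNA quality of these 2 libraries has in the alpha values was not tested.

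**Figure D3:**
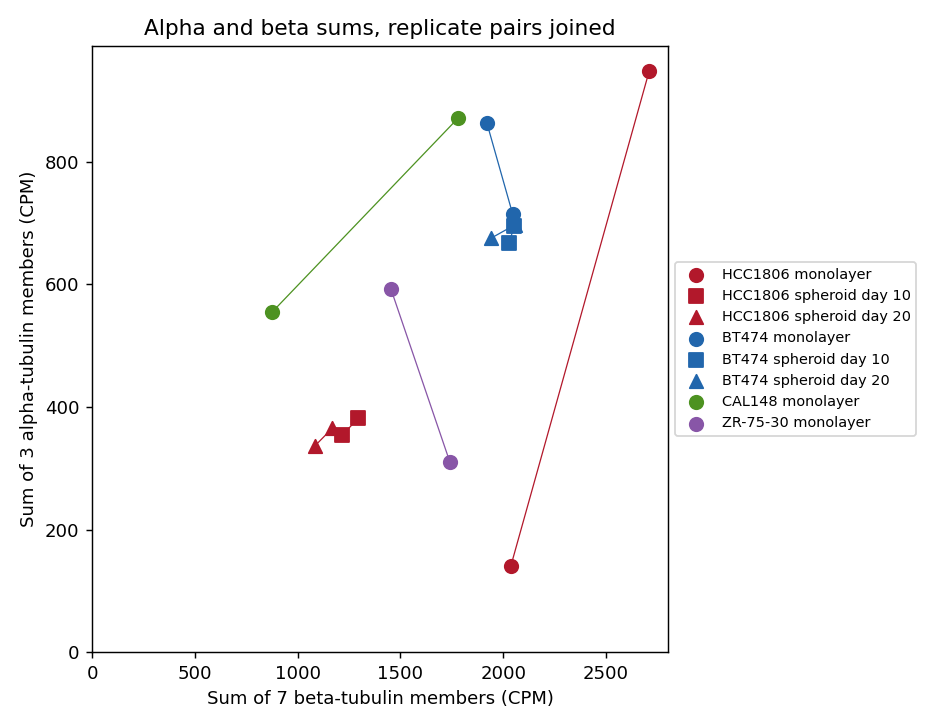
Summed CPM of the 3 alpha members (y axis) against that of the 7 beta members (x axis) in each library; symbols mark culture state, colours mark lines, and thin lines join replicates. The 2 HCC1806 monolayers lie far apart along the alpha axis (140 and 949 CPM), while the BT474 and HCC1806 spheroid pairs lie close together.

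Within HCC1806 spheroids, the minor beta genes TUBB2A and TUBB2B rose from day 10 to day 20 while TUBB4B fell. Among 20606 genes 3.20% rose and 3.60% fell. TUBB2B went from 7.86 and 5.99 CPM to 18.5 and 14.2 CPM, a rise of 1.24 on the log2 scale (SE 0.20, adjusted p = 0.00214), with no overlap. TUBB2A went from 23.0 and 20.0 CPM to 34.2 and 29.5 CPM, a rise of 0.58 (SE 0.12, adjusted p = 0.0126), and the TUBB4B fall was 0.33 (SE 0.08, adjusted p = 0.0315). Since 49.4% of TUBB2A stretches are also in other transcripts, mostly TUBB2B, reads of this pair cannot be fully told apart. Leaving out a library kept the TUBB2B call in 10 of 10 cases. The TUBB2A call was lost without day 10 replicate 2 (adjusted p = 0.134) or day 20 replicate 1 (adjusted p = 0.116). The TUBB4B call was lost without any 1 of the 8 spheroid libraries of both lines (0.0519 to 0.265). In the fit with the HCC1806 monolayers added, or with the HCC1806 libraries alone, no member was called here; without BT474 monolayer replicate 1, 6 were (4 higher, 2 lower, where 4.59% and 5.76% of genes were), as without replicate 2 (4.43% and 6.21%), and without HCC1806 day 10 replicate 2 or day 20 replicate 1, 1 was. As shares of the beta sum, TUBB2A went from 2.77% ± 0.143 to 4.61% ± 0.226 and TUBB2B from 0.700% ± 0.101 to 1.86% ± 0.245.

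In BT474 spheroids TUBB6 fell, and the main beta isotypes TUBB and TUBB4B gave no call. At day 10, TUBB6 was the 1 member called, lower, where 5.67% of genes were lower and 6.58% higher. Without BT474 monolayer replicate 2 more members, and more of all genes, were called, in a fit that kept 1 monolayer library of this line. At day 20, TUBB6 and TUBA1C were lower and none higher, where 7.24% of genes were lower and 7.40% higher. From day 10 to day 20, TUBB6 alone was called, lower, where 0.189% of genes were lower and 0.0922% higher.

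TUBB6 was at 30.0 and 25.3 CPM in BT474 monolayers, 13.9 and 13.4 CPM in day 10 spheroids, and 7.984 and 6.615 CPM in day 20 spheroids. The 3 pairs did not overlap. It fell by 1.03 on the log2 scale at day 10 (SE 0.13, adjusted p = 1.38e-04) and by 1.92 at day 20 (SE 0.13, adjusted p = 1.27e-06), and by 0.89 between the 2 times (SE 0.13, adjusted p = 0.0196). The falls from the monolayer kept their calls in all 10 cases of a library left out (highest adjusted p 0.00418 at day 10 and 4.52e-05 at day 20). The fall from day 10 to day 20 lost its call without day 10 replicate 1 (0.123) or 2 (0.156) or day 20 replicate 2 (0.209), with log2 changes from -1.03 to -0.77. When the HCC1806 monolayers were added to the fit, the day 10 call was lost (adjusted p = 0.134) and the day 20 call was not (0.0179), and with all 16 libraries in 1 fit both were lost (0.898 and 0.131), at log2 changes of -1.02 and -1.92. The body of TUBB6 overlaps AFG3L2 on the opposite strand. None of the 150-base stretches of its 2064-base model transcript occurs in an AFG3L2 transcript. The counted gene has a length of 4117 bases, and its remaining parts were not searched, so the search cannot settle whether AFG3L2 reads were counted.

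TUBB in BT474 was at 1114 and 1338 CPM in monolayers, 1332 and 1319 CPM at day 10 and 1335 and 1253 CPM at day 20, and the groups overlapped (log2 change 0.11, SE 0.08, adjusted p = 0.483 at day 10). TUBB4B ran from 615 to 724 CPM over the 6 BT474 libraries and TUBB2A from 44.2 to 58.8 CPM, with no call. TUBA1B was at 526 and 420 CPM in monolayers against 402 to 421 CPM in the 4 spheroid libraries, without a call. TUBA1C was at 313 and 286 CPM in monolayers, 245.3 and 261.5 CPM at day 10, and 255 and 246 CPM at day 20. Its day 20 fall was 0.26 (SE 0.08, adjusted p = 0.0400), a call that was lost when 7 of the 10 libraries were left out in turn (0.0536 to 0.234), namely the HCC1806 day 10 and the BT474 day 10 and day 20 spheroids and BT474 monolayer replicate 1. TUBA1A was at 24.0 and 9.10 CPM in the monolayers and between 19.9 and 25.0 CPM in the spheroids, with overlap. TUBB2B ran from 5.06 to 7.08 CPM over the 6 libraries and gave no call, nor did TUBB3 (log2 change 0.69, adjusted p = 0.295 at day 10; 0.96, adjusted p = 0.123 at day 20). TUBB4A held 2 to 7 counts a library.

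**Figure D4:**
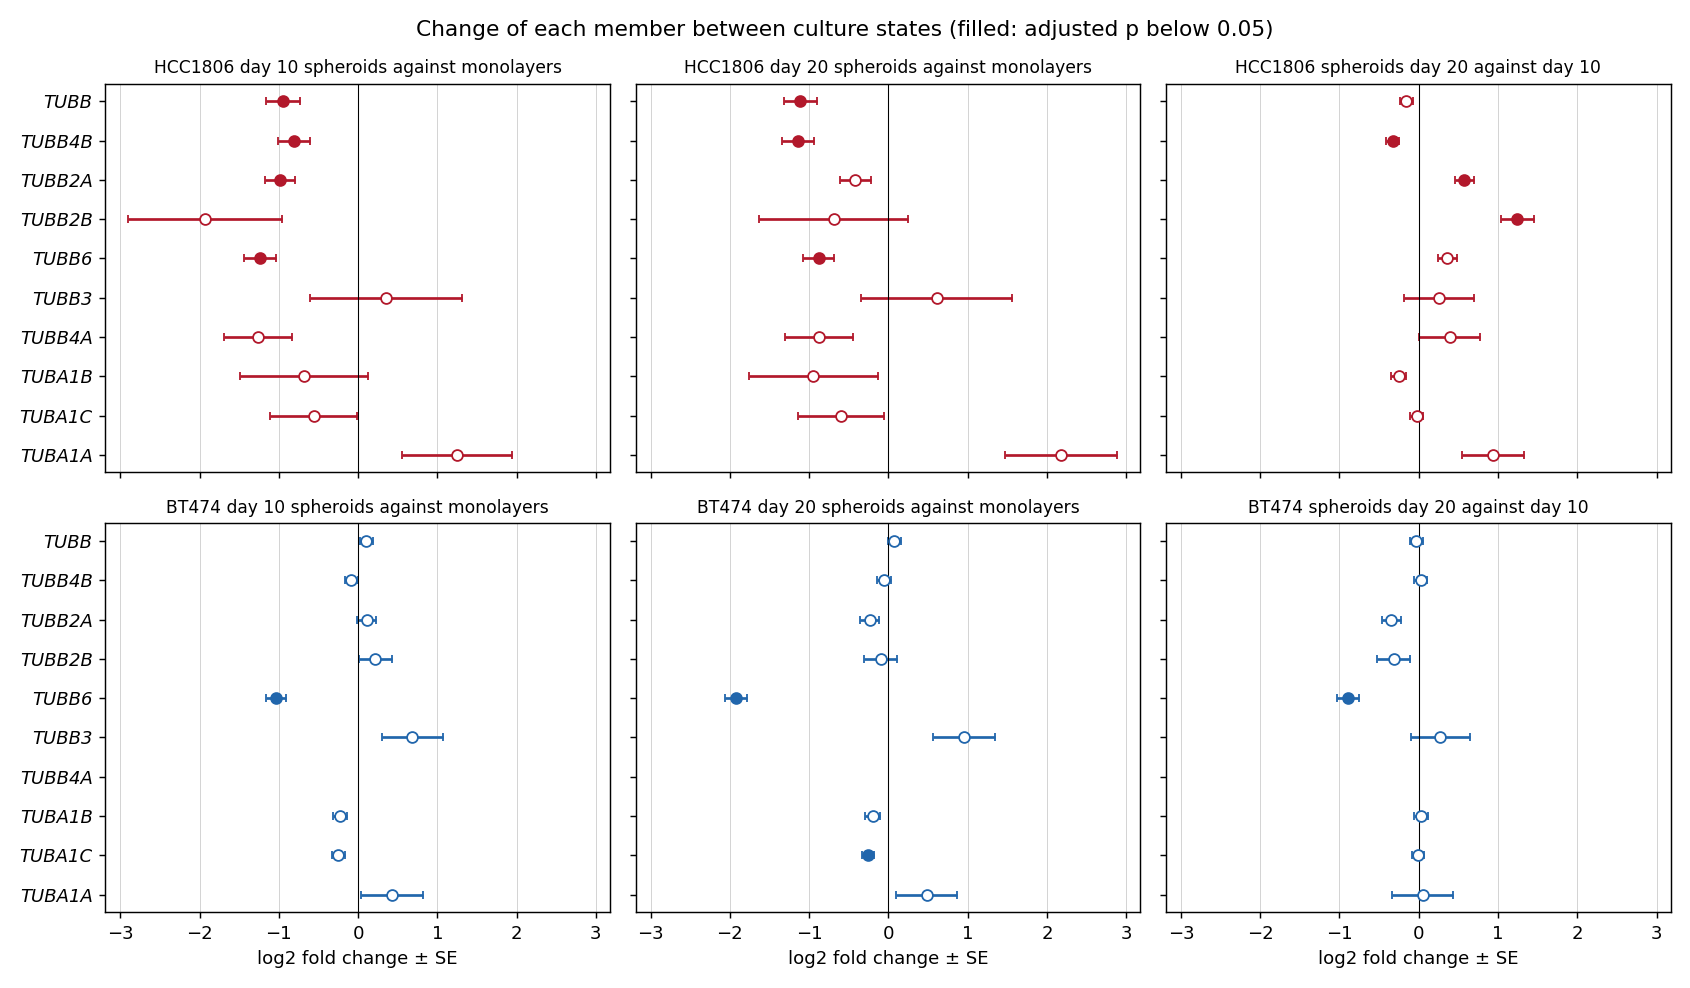
Log2 fold change with its SE (x axis) of each member (y axis) for the 3 comparisons within HCC1806 (top) and BT474 (bottom); filled points had an adjusted p below 0.05. TUBB4A is left out in BT474, where it had at most 7 counts a library. The largest BT474 change is that of TUBB6 at day 20 (-1.92). The HCC1806 bars against monolayers are widest for TUBB2B and TUBB3 and also wide for the alpha genes.

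Whether the spheroid effect differed between the lines was asked with the difference of the 2 effects. No member passed at day 10, where 0.956% of genes differed one way (higher in HCC1806 relative to BT474) and 0.392% the other, nor at day 20, where the shares were 1.79% and 0.980%. At an unadjusted p under 0.05 by edgeR, 4 members differed at day 10, where 3505 of 20929 genes did. At day 20, 3 members differed, where 3862 of 20929 genes did. DESeq2 called 3 members at each time, and its share of all genes is not given here. For TUBB the difference was -1.06 at day 10 (SE 0.29, adjusted p = 0.119) and -1.19 at day 20 (SE 0.30, adjusted p = 0.0751). For TUBB4B it was -0.73 (SE 0.28, adjusted p = 0.247) and -1.08 (SE 0.28, adjusted p = 0.0881). The TUBB effects in HCC1806 and BT474 were therefore not shown to differ with both monolayers in the fit. Without HCC1806 monolayer replicate 1, 1 member was higher and 5 lower at day 10, where 13.5% of all genes were higher and 14.7% lower, and 3 and 4 at day 20 (14.5% and 15.1%). Without replicate 2, 3 were higher and 4 lower at day 10 (25.3% and 19.6%), and 4 and 3 at day 20 (25.6% and 19.8%).

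The change from day 10 to day 20, which does not involve the monolayers, did differ between the lines for 3 members. This comparison was added after the data were seen. TUBB6, TUBB2B and TUBB2A were all higher in HCC1806 relative to BT474, where 1.56% of genes were higher and 1.11% lower. For TUBB6 the difference was 1.26 on the log2 scale (SE 0.18, adjusted p = 0.00199): the HCC1806 pair went from 66.25 and 54.26 to 78.5 and 75.5 CPM and the BT474 pair from 13.9 and 13.4 to 7.984 and 6.615 CPM. The TUBB6 change within HCC1806 did not pass by itself (log2 change 0.36, adjusted p = 0.0967). For TUBB2B the difference was 1.56 (SE 0.29, adjusted p = 0.0110), with BT474 at 7.08 and 6.83 CPM and then 5.93 and 5.20 CPM. For TUBB2A it was 0.92 (SE 0.17, adjusted p = 0.0114), with BT474 at 57.2 and 56.3 CPM and then 44.9 and 44.2 CPM. In both lines the pairs of the 2 times did not overlap for any of the 3 genes. Such separation was common among the members in HCC1806 (8 of 10), while in BT474 it was seen for these 3 alone. The share of all genes so separated is not given, so the separation adds nothing to the calls. The TUBB6 difference kept its call without any 1 library (highest adjusted p 0.0162). With the HCC1806 monolayers added to the fit, or with all 16 libraries in it, none of the 3 differences was called, at similar sizes (1.25, 1.56 and 0.92). The TUBB2B call was lost without HCC1806 day 10 replicate 2 (0.0617), HCC1806 day 20 replicate 1 (0.0513) or BT474 day 20 replicate 2 (0.0624), and the TUBB2A call without these (0.0664, 0.0504 and 0.0571) or BT474 day 10 replicate 1 (0.0528). More members, and more of all genes, were called without either BT474 monolayer library, which is not part of this comparison.

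**Figure D5:**
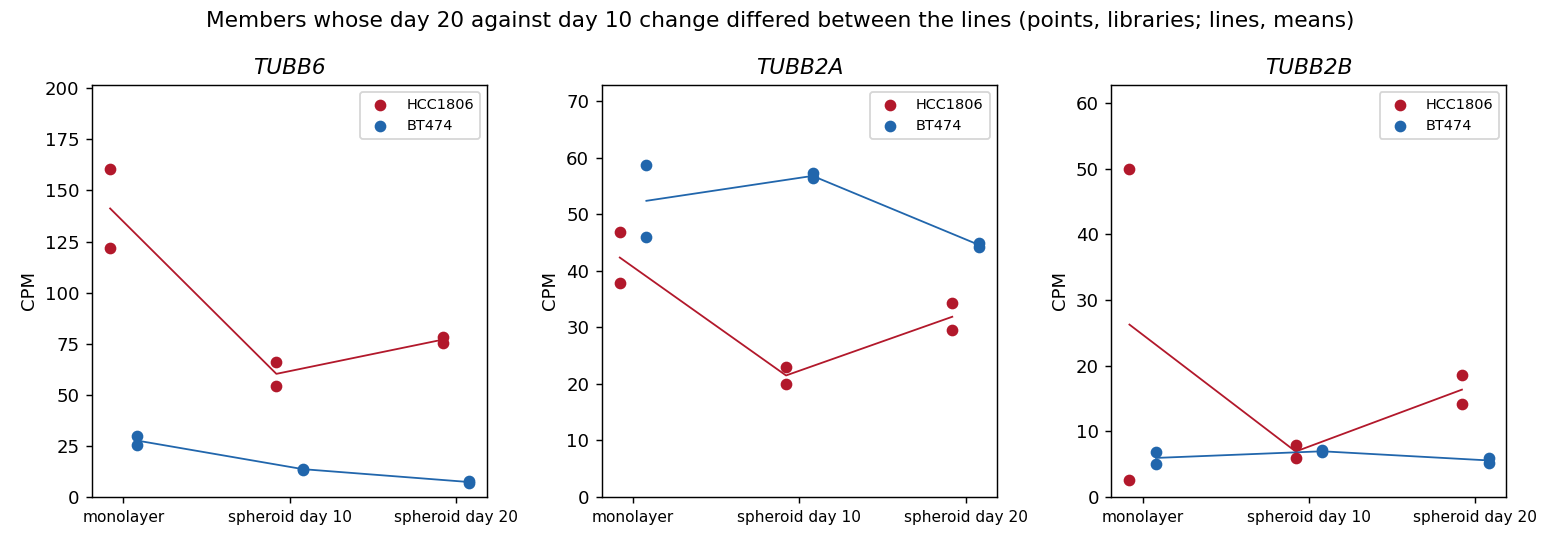
Levels of TUBB6, TUBB2A and TUBB2B (y axes, CPM from 0) in monolayers, day 10 and day 20 spheroids of HCC1806 and BT474; points are libraries and lines join the means of 2. The HCC1806 means are higher and the BT474 means lower at day 20 than at day 10 in each panel, and the 2 HCC1806 monolayers of TUBB2B lie at 49.9 and 2.58 CPM.

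Compared as spheroids, HCC1806 had less of the main isotypes than BT474 and more of TUBB6 and TUBB4A. At day 10, 2 members were higher and 6 lower, where 37.5% of genes were higher and 33.2% lower; at day 20, 3 were higher and 6 lower, where the shares were 37.7% and 33.6%. TUBB was lower, with a log2 difference of -0.81 (SE 0.08, adjusted p = 8.53e-07) at day 10 and -0.93 (SE 0.08, adjusted p = 1.84e-07) at day 20. The differences were -1.13 (SE 0.09) and -1.41 (SE 0.10) for TUBA1B, -0.62 and -0.64 (SE 0.08 each) for TUBA1C, and -0.63 and -0.98 (SE 0.08 each) for TUBB4B. TUBB2A differed by -1.39 (SE 0.12) at day 10 and by -0.47 (SE 0.12, adjusted p = 0.00314) at day 20. TUBB6 was higher by 2.15 (SE 0.13, adjusted p = 2.02e-09) and 3.41 (SE 0.14, adjusted p = 3.69e-11). TUBB4A was at 1.57 to 2.56 CPM in the HCC1806 spheroids and at 0.0523 to 0.121 CPM in those of BT474, higher by 3.95 (SE 0.50) and 4.76 (SE 0.55). TUBB2B overlapped at day 10 (log2 difference 0.00, SE 0.21, adjusted p = 0.993) and was higher in HCC1806 at day 20 (1.56, SE 0.21, adjusted p = 1.10e-05). No call of these 2 comparisons was lost on leaving out 1 library, but with the HCC1806 monolayers in the fit 5 members passed at day 10 and 4 at day 20.

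TUBB3, whose protein is often discussed in taxane resistance, had low counted values in every library, but 88.7% of its stretches are shared with the read-through gene at 0 counts, so these values may understate its expression by an unknown amount, the 0 counts included. It ran from 0.392 to 1.10 CPM in the HCC1806 spheroids, from 1.34 to 3.23 CPM in the 6 BT474 libraries, and was at 0.350 and 0.827 CPM in CAL148. HCC1806 monolayers held 1 and 40 counts, and ZR-75-30 held 0 counts in both libraries. A count of 0 allows up to 3 counts, or 0.0835 and 0.146 CPM in the 2 ZR-75-30 libraries. This covers only the counting error of independent counts, and not reads lost to the read-through gene. TUBB3 was lower in HCC1806 than in BT474 spheroids, with log2 differences of -1.75 at day 10 (SE 0.41, adjusted p = 0.00173) and -1.76 at day 20 (SE 0.41, adjusted p = 0.00154).

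Among the 4 monolayers, TUBB6 set HCC1806 and CAL148 at opposite ends. HCC1806 was at 122 and 160 CPM, BT474 at 30.0 and 25.3 CPM, ZR-75-30 at 19.5 and 14.5 CPM, and CAL148 at 0.323 and 0.942 CPM (12 and 41 counts). No 2 of the pairs overlapped, but the difference between ZR-75-30 and BT474 did not pass (log2 difference -0.71, SE 0.49, adjusted p = 0.400). HCC1806 was higher than BT474 by 2.40 (SE 0.51, adjusted p = 0.0194), than ZR-75-30 by 3.11 (SE 0.53, adjusted p = 0.00865) and than CAL148 by 7.81 (SE 0.66, adjusted p = 0.00133). CAL148 was lower than BT474 (log2 difference -5.41, SE 0.60, adjusted p = 0.00627) and than ZR-75-30 (-4.70, SE 0.58, adjusted p = 0.00497). All 3 differences from CAL148 kept their calls without any 1 library. The HCC1806 difference from BT474 was lost without BT474 replicate 1 or 2 (0.136 and 0.168), and that from ZR-75-30 without ZR-75-30 replicate 1 (0.0557) or 2 (0.0699).

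TUBB2A and TUBA1A also marked CAL148, in opposite directions. TUBB2A was at 4.275 and 4.871 CPM there, against 37.8 and 46.9 CPM in HCC1806, 46.0 and 58.8 CPM in BT474, and 39.8 and 42.7 CPM in ZR-75-30. CAL148 was lower than HCC1806 (HCC1806 higher by 3.24, SE 0.38, adjusted p = 0.00293), than BT474 (-3.50, SE 0.38, adjusted p = 0.00580) and than ZR-75-30 (-3.14, SE 0.38, adjusted p = 0.00442). The BT474 call was lost without CAL148 replicate 1 (0.0594) or 2 (0.0608). TUBA1A was at 195 and 269 CPM in CAL148, against 13.9 and 2.47 CPM in HCC1806, 24.0 and 9.10 CPM in BT474, and 20.0 and 32.6 CPM in ZR-75-30. Both CAL148 libraries were above all others. HCC1806 was lower than CAL148 (log2 difference -4.81, SE 0.91, adjusted p = 0.0134). CAL148 was higher than BT474 by 3.83 (SE 0.87, adjusted p = 0.0448) and than ZR-75-30 by 3.18 (SE 0.85, adjusted p = 0.0498). These last 2 calls were near the threshold and were lost when any 1 of the 6 BT474, CAL148 and ZR-75-30 libraries was left out (0.0791 to 0.269 and 0.0665 to 0.209). The HCC1806 call was lost without CAL148 replicate 2 (0.0630). The main isotypes differed between the 2 CAL148 libraries, with TUBB at 620 and 1231 CPM and TUBB4B at 252 and 542 CPM.

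TUBB2B was not detected in ZR-75-30, with 0 counts in both libraries, while its near copy TUBB2A held 1430 and 877 counts there. Against the floor of 3 counts over the group, TUBB2B was at least 412-fold higher in HCC1806 monolayers and at least 112-fold higher in BT474 monolayers than in ZR-75-30 (adjusted p = 0.0127 and 0.0383). The HCC1806 bound rests on replicate 1, which held 1266 of its 1361 counts: replicate 2 alone, with 95 counts, was at least 48.6-fold higher. In CAL148 it had 10 and 9 counts (0.269 and 0.207 CPM), and HCC1806 was higher than CAL148 by 6.79 (SE 1.50, adjusted p = 0.0257), or by 3.45 without HCC1806 replicate 1. That call was lost without CAL148 replicate 1 (0.151) or 2 (0.163), and those against ZR-75-30 without ZR-75-30 replicate 1 or 2 (0.0726 and 0.0622 for HCC1806, 0.153 and 0.163 for BT474). The BT474 call was lost also without any 1 of the BT474 and CAL148 libraries (lowest adjusted p 0.0766). TUBB4A was at 4.81 and 3.29 CPM in HCC1806 monolayers and had 2 to 4 counts a library in BT474 and ZR-75-30. HCC1806 was higher by 5.81 (SE 1.18, adjusted p = 0.0167) and 5.77 (SE 1.20, adjusted p = 0.0170), calls lost without either BT474 library (0.124 and 0.158) or either ZR-75-30 library (0.124 and 0.0942). These folds rest on few counts. TUBB, TUBB4B, TUBA1B and TUBA1C gave no call in any pair of monolayers.

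Counted by pair of lines, HCC1806 monolayers had 2 members higher and none lower than BT474 (background 11.7% and 8.42% of 19594 genes), 3 higher and 1 lower than CAL148 (12.4% and 7.80%), and 3 higher and none lower than ZR-75-30 (12.5% and 8.04%). CAL148 had 1 higher and 2 lower than BT474 (2.50% and 3.88%) and 1 higher and 2 lower than ZR-75-30 (5.93% and 6.29%). ZR-75-30 had 1 lower and none higher than BT474 (4.38% and 3.66%). Leaving out a library moved the number of members called in every pair of lines. It fell to none for HCC1806 against BT474, HCC1806 against ZR-75-30 and ZR-75-30 against BT474. The shares of all genes called moved in the same fits, each of which kept 1 library of a line. The moved numbers are therefore not read as a result about the members.

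Genes that make, modify or use tubulin were described from 6 lists. With both HCC1806 monolayers in the fit, 3.58% of all genes were lower and 5.14% higher at day 10, and 4.85% and 6.24% at day 20. In HCC1806 spheroids against monolayers, 2 of 21 tubulin folding genes were lower at day 10 (PFDN2, a prefoldin subunit, -2.15, SE 0.50, adjusted p = 0.0327; TBCB, a tubulin cofactor, -0.81, SE 0.15, adjusted p = 0.0157) and 3 at day 20, with medians of -0.682 and -0.689 and none higher. Of 9 other tubulin genes tested, TUBG1 (gamma-tubulin, which nucleates microtubules) was lower, at -1.29 (SE 0.17, adjusted p = 0.00422) and -1.49 (SE 0.17, adjusted p = 0.00208). MAPT, which encodes tau, was higher at both times (1.70, adjusted p = 0.0208, and 2.45, adjusted p = 0.00530), and MAP1B at day 20 (1.74, adjusted p = 0.0270). Of 15 mitotic genes 2 were lower each time, the kinase gene AURKB (-1.50, adjusted p = 0.00585, and -1.79, adjusted p = 0.00243) and UBE2C (-1.18, adjusted p = 0.00471, and -1.49, adjusted p = 0.00183). These counts moved with the monolayer library used: for the folding list at day 10, 16 of 21 were lower and 1 higher without replicate 1, and 10 lower and 4 higher without replicate 2. Of all genes, 19.0% were lower and 19.6% higher without replicate 1, and 23.2% and 29.5% without replicate 2. Of 3 autoregulation genes (TTC5, SCAPER and CNOT11) the median was 0.745 at day 10 with both monolayers and 0.122 without replicate 1.

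In BT474 spheroids, 8 of 15 mitotic genes were lower at day 10 and 7 at day 20, none higher, with medians of -0.398 and -0.333; of all genes, 5.67% were lower and 6.58% higher at day 10, and 7.24% and 7.40% at day 20. CENPF, a kinetochore gene, had a log2 change of -0.69 at both times (adjusted p = 0.0147 and 0.0126), and the kinase gene PLK1 of -0.56 and -0.57 (adjusted p = 0.00512 and 0.00444). Of 22 genes for microtubule dynamics and severing, 2 were higher and 4 lower at day 10 and 2 higher and 3 lower at day 20. STMN1, which sequesters tubulin dimers, was higher at day 20 (0.64, SE 0.07, adjusted p = 6.54e-05), as was MAPT (0.62, SE 0.12, adjusted p = 0.00321). Of 21 folding genes, 2 were higher at day 10, and 1 was higher and 2 lower at day 20: TBCA, which holds beta-tubulin during folding, was higher by 0.27 and 0.37 (adjusted p = 0.0415 and 0.00744).

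From day 10 to day 20, HCC1806 spheroids had lower TOP2A (-0.59, SE 0.08, adjusted p = 7.60e-04), BUB1 (-0.42, adjusted p = 0.0106) and TBCD, another tubulin cofactor (-0.51, SE 0.09, adjusted p = 0.00280). MAP1B (1.22, SE 0.26, adjusted p = 0.0179) and MAPT (0.75, SE 0.15, adjusted p = 0.00692) were higher. HCC1806 against BT474 spheroids, 16 of 21 folding genes were lower at day 10 and none higher, with a median of -0.763; at day 20, 17 were lower and 1 higher, with a median of -0.777. CCT3, a subunit of the chaperonin that folds tubulin, was at 259 CPM in HCC1806 and 944 CPM in BT474 at day 20 (-1.86, SE 0.07, adjusted p = 1.40e-11). TUBA4A, an alpha-tubulin outside the 10, was higher in HCC1806 (103 against 18.6 CPM at day 10; 2.48, SE 0.13, adjusted p = 7.20e-10), and TUBD1, delta-tubulin, was lower (-2.38, SE 0.09, adjusted p = 3.09e-11). MAPT was lower (-4.002, SE 0.14, adjusted p = 9.12e-12). Of 17 tubulin-modifying enzymes tested, 7 were higher and 7 lower at day 10, among them AGBL5, a tubulin deglutamylase (2.97, SE 0.09, adjusted p = 2.66e-12), and TTLL11, a polyglutamylase (-2.98, SE 0.21, adjusted p = 1.07e-08). Of the autoregulation genes, SCAPER was higher (0.66, adjusted p = 0.00198) and so was CNOT11 (0.32, adjusted p = 0.00229), and TTC5 was lower at day 20 (-0.46, adjusted p = 0.00108). In this comparison 37.5% and 33.2% of all genes were called, so a list's count is read against those shares. Over all comparisons, 26 of the 109 calls of named list genes were kept under every alternative tried, and 83 were lost under at least 1.

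For the 6 members whose group means ranged over at least 4-fold, the protein-coding genes with the most similar course over the 8 group means (log2 CPM, 11201 genes searched) were named as a description, without a test. The points share the 4 lines, so a line difference alone gives a high correlation. For TUBB6 these were ANXA1 (Pearson r = 0.985) and PLCD3 (0.979), and for TUBB2A ZC3H8 (0.985) and PPP3CC (0.981). For TUBB2B they were MAPRE1 (0.989), which encodes a microtubule plus-end protein, and MET (0.987). For TUBA1A they were TOP1 (0.976) and SERTAD4 (0.975). For TUBB3 they were RAB2B (0.995) and ZFP1 (0.984), and for TUBB4A FSD1 (0.997) and CCDC84 (0.992).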

How the data were processed

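Polyadenylated RNA from 16 libraries was sequenced as 150-base paired-end reads, per the labels' protocols. Reads were aligned with HISAT2 2.2.1 and counted with featureCounts 2.0.6 on GRCh38, per the submitters' processing notes; strand, overlap and multi-mapping settings are not given in the sources used here. The authors deposited raw read counts per gene and FPKM values for every library in 1 table. Groups were taken from the titles, since the treatment label names monolayers for all 16 libraries.

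Counts as deposited were tested with edgeR 4.0.16 (R 4.3.3; TMM scaling, genes kept by filterByExpr with a minimum count of 10 and a minimum total of 15, robust quasi-likelihood). HCC1806 spheroids against monolayers and the line differences in the spheroid effect used the 12 HCC1806 and BT474 libraries. Comparisons without the HCC1806 monolayers used 10, and pairs of monolayers used 8. The fit of 10 was chosen because an earlier look at these data had shown a far wider replicate spread in the HCC1806 monolayers. CPM values use TMM-scaled library sizes. Shares within the beta or alpha members used the deposited FPKM, without a test. Library totals of 29696358 to 72489002 counts set the counting error, and a count of 0 allows up to 3 counts if counts are independent. Low nonzero counts were more often even (102629) than odd (65718), so they were not all independent. The floor of 3 may then be too low, and fold bounds drawn from it too high. Alternatives were RLE scaling, no count filter, a stricter minimum count of 50, a replicate block, DESeq2 1.42.0, other sets of libraries, and leaving out each library. The code was tested on simulated data. Coding sequences and read-length stretches were read from GENCODE 29 transcripts with Biopython 1.88.

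The rule for named genes covered all 10 members; those without a call are given by value, range or count, and TUBB4A has no fold within BT474, where it is near the floor. From each of 6 lists (other tubulins, tubulin folding, tubulin mRNA autoregulation, tubulin modification, microtubule dynamics and severing, mitosis), at most 2 called genes with a mean of at least 5 CPM and the largest change could be named per comparison. The members and lists were chosen with earlier results of these data known, and the line difference between day 10 and day 20 was added after the data were seen.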

Additional observations from a re-analysis of the deposited data

Results flagged for a closer look

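The change from day 10 to day 20 differed between HCC1806 and BT474 spheroids, by an interaction contrast of edgeR's quasi-likelihood test, for 3 of the 10 members. The log2 difference (HCC1806 minus BT474) was 1.26 for TUBB6 (adjusted p = 0.00199), 1.56 for TUBB2B (adjusted p = 0.0110) and 0.92 for TUBB2A (adjusted p = 0.0114). In each case both HCC1806 day 20 libraries were above both day 10 libraries, and both BT474 day 20 libraries were below both day 10 libraries. These are the libraries that gave the calls, so the separation is a description and no further evidence. With the HCC1806 monolayers added to the fit, none of the 3 was called.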

How the results depend on the processing

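Of 50 calls of members, 12 were kept under every alternative, 38 were lost under at least 1, and 0 changed direction. The numbers of members called changed most with the libraries fitted. For HCC1806 against monolayers, 1 was called with all 16 libraries and 0 with HCC1806 alone at day 10, and 0 and 0 at day 20 (5 with no count filter). For HCC1806 day 20 against day 10, no count filter gave 5, and all 16 libraries, the 12 libraries and HCC1806 alone gave 0. For BT474 at day 10, DESeq2 and BT474 alone gave 2, and all 16 and the 12 libraries 0. At day 20 these last 2 gave 0 and 1, and for BT474 day 20 against day 10 they gave 0. For the line differences, no filter gave 1 at day 10 and 2 at day 20, the stricter filter 1 at day 20, and DESeq2 3 at each; for the change between times, all 16 and the 12 libraries gave 0. HCC1806 against BT474 spheroids gave 3 and 5 at day 10 and 4 and 4 at day 20 with all 16 and the 12 libraries. With no filter, HCC1806 against ZR-75-30 gave 5, CAL148 against ZR-75-30 gave 5 (DESeq2 5) and ZR-75-30 against BT474 gave 2 (DESeq2 2, all 16 libraries 2); CAL148 against BT474 gave 5 with all 16 libraries. The shares of all genes called under these settings are not given here, so these numbers are not read as a result about the members. The cause was not tested.

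Leaving out 1 library gave 0 to 9 members called for HCC1806 at day 10, 0 to 8 at day 20 and 1 to 6 between the times. For BT474 the ranges were 1 to 4, 1 to 3 and 0 to 1. For the line differences they were 0 to 7 at day 10, 0 to 7 at day 20 and 1 to 5 between the times. For pairs of monolayers they were 0 to 6 (HCC1806 against BT474), 2 to 6 (against CAL148), 0 to 5 (against ZR-75-30), 1 to 4 (CAL148 against BT474), 2 to 5 (CAL148 against ZR-75-30) and 0 to 2 (ZR-75-30 against BT474). Where an arm kept 1 library, that library was assumed to vary like the other groups. The shares of all genes called moved in the same fits, so these ranges are not read as particular to the members.

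Correlations of the replicate differences ran from -0.553 (HCC1806 and ZR-75-30 monolayers) to 0.149 over 28 pairs of groups. They cannot show whether same-numbered libraries were prepared together, and the main fits did not pair them. With the replicate block, 0 members were called for ZR-75-30 against BT474, against 1 without it; in the other comparisons the block moved the number called by at most 1. Depth limits TUBB3, TUBB4A and, in CAL148 and ZR-75-30, TUBB2B, which had few or 0 counts.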
